A study of Mus musculus with 6 samples.

Results

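The glycosaminoglycan linker enzymes build the short bridge of xylose, galactose, galactose and glucuronic acid that joins a proteoglycan's sugar chain to a serine of its core protein. Xylt1 and Xylt2 code for the xylosyltransferases that place xylose on the serine, B4galt7 for the enzyme that adds the first galactose, B3galt6 for the enzyme that adds the second, and B3gat3 for the glucuronosyltransferase that closes the bridge. Heparan sulfate and chondroitin sulfate chains both start on this bridge, and epithelial cells carry such chains on surface proteoglycans such as syndecans and glypicans. The 5 genes were taken as a given list and found in the table through the RefSeq accession in each probe set's name. All 5 were found, with 1 probe set each, among 909 named genes and 1246 probe sets.

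The cultures were of MLE-15, an immortal epithelial line derived from lung tumours of mice carrying the SV40 large T antigen under a surfactant protein C promoter, hybridised to Affymetrix arrays. There were 3 control arrays, from cells without PMA, and 3 arrays from PMA-stimulated cells. PMA (phorbol 12-myristate 13-acetate) is an activator of protein kinase C. The series design text gives its dose as 10 nM and its exposure as 24 h, and asks about sialyltransferases, sulfotransferases and mucins rather than the linker enzymes. Replicates are numbered 1, 2 and 3 in both groups, and the labels do not say whether these were independent cultures. The p-values therefore reflect only how far these arrays differ among themselves, which may be technical. The titles open with MLE-15CTL or MLE-15PMA for number 1. For numbers 2 and 3 they open with MLE15CTL or MLE15PMA and the suffix A or B. What this difference in naming stands for is not stated. Values are RMA values on the log2 scale, where 1 unit is a doubling of signal, and the number of arrays limits their precision. No background measure was used here, so no gene is called present or absent, and levels of different genes are not ranked. Array medians lay between 5.64 and 5.71. Of 13 listed lung epithelium markers only the surfactant proteins Sftpa1, with a mean of 3.53 in control arrays, and Sftpd, at 5.42, were measured; the first lies under each array's lower quartile (4.32 to 4.43) and the second below every array's median, so the labelled cell type could be checked only weakly.

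Sequences upstream of the start were found for 4 of the 5 genes in the RefSeq promoter table of mouse build GRCm38.p6, and Xylt1 had no entry. The 250 bases before the transcript start used by that table are shown for 3 genes: B4galt7, the linker gene called between replicate numbers, B3galt6, whose PMA difference of 0.13 log2 units was 0.047 with number 1 left out, and B3gat3, which was called in neither comparison. RefSeq places the start of some genes further upstream, so the last 19 bases of the B3gat3 window and the last 25 of the Xylt2 window lie inside the gene. The B4galt7 window lies at chr13:55599646-55599895 (plus strand), the B3galt6 window at chr4:155992679-155992928 (minus strand) and the B3gat3 window at chr19:8920143-8920392 (plus strand). Capitals mark a repeated run of 16 bases in B3galt6 and an ETS core in B3gat3, and none of the motifs searched was in B4galt7.
B4galt7: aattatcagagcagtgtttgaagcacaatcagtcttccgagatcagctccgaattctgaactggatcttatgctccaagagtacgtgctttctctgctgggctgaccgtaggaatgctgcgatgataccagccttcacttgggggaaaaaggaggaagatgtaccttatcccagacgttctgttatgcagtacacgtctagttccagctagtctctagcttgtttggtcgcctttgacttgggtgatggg
B3galt6: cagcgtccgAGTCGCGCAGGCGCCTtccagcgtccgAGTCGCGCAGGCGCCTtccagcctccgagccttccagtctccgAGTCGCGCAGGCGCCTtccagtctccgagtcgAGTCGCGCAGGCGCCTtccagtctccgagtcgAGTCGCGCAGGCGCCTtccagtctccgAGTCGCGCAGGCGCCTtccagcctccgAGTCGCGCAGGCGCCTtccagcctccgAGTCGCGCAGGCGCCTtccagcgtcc
B3gat3: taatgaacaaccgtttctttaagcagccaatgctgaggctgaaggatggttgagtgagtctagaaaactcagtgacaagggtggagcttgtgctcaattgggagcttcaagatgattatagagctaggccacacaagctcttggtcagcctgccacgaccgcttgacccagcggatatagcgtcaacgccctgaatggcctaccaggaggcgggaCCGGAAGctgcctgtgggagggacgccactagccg

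The B3galt6 window was a tandem array in which AGTCGCGCAGGCGCCT occurred 8 times. It held 38 CG dinucleotides and 71.6% G and C, against a median of 6 CG dinucleotides and 52.4% over 32851 windows of the same length. The B4galt7 window had 8 CG dinucleotides and 48.0% G and C, B3gat3 had 10 and 54.4%, and Xylt2 (chr11:94677494-94677743, minus strand) had 15 and 63.2%. Windows were searched on both strands for the phorbol ester response element TGACTCA, which binds the AP-1 factors that protein kinase C activates, and 0 of the 4 held it, against 4.46% of all windows. The cyclic AMP response element TGACGTCA (1.55% of all windows) and the TATA box TATAAA (12.4%) were also in 0 of the 4. The GC box GGGCGG, present in 32.7% of all windows, occurred 3 times in Xylt2, 2 of them in the bases inside the gene, and the ETS core CCGGAAG, present in 6.91%, occurred 1 time in B3gat3. These are matches of letters in a short window, and their absence says nothing about a factor's binding elsewhere.

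PMA was compared with control within replicate numbers, and none of the 5 linker genes passed the test. Across the 5, the largest absolute difference was 0.13 log2 units, the median difference was -0.075, and 2 means were higher and 3 lower with PMA. By limma with the replicate number as a block and Benjamini-Hochberg adjustment over all 1246 probe sets, 0 of the 5 were called (adjusted p under 0.05), and for 0 was the unadjusted p below 0.05. Both counts were also 0 without the block. The background for this comparison was 0% of all probe sets called, although 42 had an unadjusted p under 0.05, and the median difference over all probe sets was 0.0033.

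Xylt1, one of the pair of xylosyltransferases that start the bridge, measured 5.61, 5.62 and 5.68 in control arrays 1, 2 and 3 and 5.62, 5.55 and 5.51 in the matching PMA arrays. The groups overlapped only through number 1: the PMA array was lower in numbers 2 and 3 and about level in number 1. The pair differences were 0.012, -0.069 and -0.17. The group means were 5.64 ± 0.040 and 5.56 ± 0.052 (SD, n = 3 each), a difference of -0.075 log2 units (SE 0.068, 95% interval -0.23 to 0.080). By limma the unadjusted p was 0.302, and the pair differences had an SD of 0.090. The adjusted p was 0.992, which is also the smallest over all probe sets in this comparison.

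Xylt2, the other xylosyltransferase, measured 7.95, 7.75 and 7.70 in control arrays and 7.76, 7.63 and 7.75 in PMA arrays. Control 1 stood above all the others, and the groups overlapped. Its mean was 7.80 ± 0.13 in control and 7.71 ± 0.072 in PMA arrays (SD, n = 3 each), with a difference of -0.088 (SE 0.072, 95% interval -0.25 to 0.075) and an adjusted p of 0.992 by limma. Its probe set carries the suffix s, which marks one that can bind several transcripts. Since Xylt1 and Xylt2 act at the same step, the difference between them was also taken within each array, where its change from array to array can be read but its size cannot, because the probe sets differ. It changed by 0.013 log2 units with PMA, with an exact two-sided sign-flip p of 1, the smallest p that 3 pairs allow being 0.25.

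B4galt7, which adds the first galactose, measured 7.23, 7.33 and 7.49 in control arrays and 7.03, 7.42 and 7.33 in PMA arrays. The lowest array of each group was number 1, and the groups overlapped. The pairs gave -0.20, 0.094 and -0.16. Means were 7.35 ± 0.13 and 7.26 ± 0.20 (SD, n = 3 each), a difference of -0.087 (SE 0.077, 95% interval -0.26 to 0.088; adjusted p = 0.992 by limma).

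B3galt6, which adds the second galactose, measured 4.52, 4.56 and 4.43 in control arrays and 4.82, 4.55 and 4.53 in PMA arrays. One array, PMA 1, was well above the other 5, which lay within 4.43 and 4.56. The pairs gave 0.31, -0.0050 and 0.10. Means were 4.50 ± 0.063 and 4.64 ± 0.16 (SD, n = 3 each), a difference of 0.13 (SE 0.077, 95% interval -0.042 to 0.31; adjusted p = 0.992 by limma). The PMA difference in number 1 exceeded that in numbers 2 and 3 by 0.26 (SE 0.14), which did not pass either (adjusted p = 0.743 by limma). Its values lie close to the arrays' lower quartile, and signal over background is unknown there.

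B3gat3, which adds the closing glucuronic acid, measured 8.81, 8.69 and 8.64 in control arrays and 8.84, 8.78 and 8.57 in PMA arrays. Arrays of the same number lay side by side, with number 1 the highest in each group and number 3 the lowest. The means of 8.72 ± 0.087 and 8.73 ± 0.14 (SD, n = 3 each) differed by 0.013 (SE 0.067, 95% interval -0.14 to 0.17; adjusted p = 0.995 by limma). The 95% intervals of all 5 genes lay within 0.58 log2 units of 0 in the blocked fit, as did 1242 of the 1246 probe sets, and within 1 unit in the fit without the block. A doubling or halving of these signals was therefore outside the intervals in both fits, for these arrays. Of the 5 genes, 0 showed a PMA difference that depended on the number by limma's interaction test, with 0 at an unadjusted p under 0.05, against a background of 0.0803% of probe sets called.

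**Figure D1:**
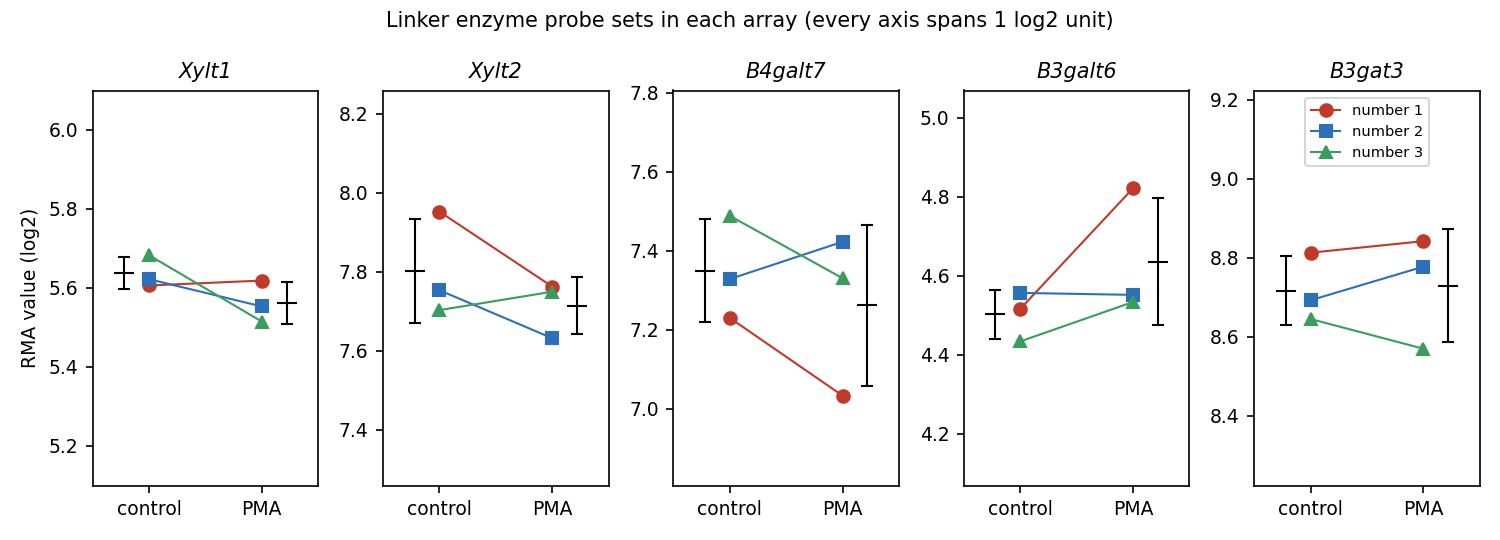
RMA values (log2, vertical axis) of the 5 linker enzyme probe sets in control and PMA arrays; coloured lines join arrays of the same replicate number, and black bars give the group mean ± SD (n = 3). Every axis spans 1 log2 unit, and groups overlap for every gene. The number 1 arrays are lowest for B4galt7 and, by small gaps, highest for Xylt2 and B3gat3. The share of all probe sets parted in this way was not counted. PMA 1 stands above the other arrays for B3galt6.

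The replicate numbers themselves were compared next, because the arrays of number 1 differ widely from the others in this series. The split was thus chosen from these same arrays. Its counts and p-values are a description and do not test whether number 1 stands apart. With PMA as a term, 41.7% of all probe sets were called between the 2 number 1 arrays and the 4 arrays of numbers 2 and 3 by limma after Benjamini-Hochberg adjustment; 27.5% were higher in number 1 and 14.1% were lower. Of the 5 linker genes 1 was called, B4galt7, which was lower in number 1, and 1 had an unadjusted p under 0.05. The median absolute difference was 0.15 log2 units over the 5 genes and 0.17 over all probe sets, and the largest of the 5, 0.26, was exceeded by 37.0% of probe sets. The share called among 5 genes is too coarse to set against the background. Since 1 pair of arrays was set against 2, the p-values describe these arrays alone.

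B4galt7 averaged 7.13 in number 1 and 7.39 ± 0.078 (SD, n = 4) in numbers 2 and 3. Both number 1 arrays, at 7.03 and 7.23, lay below the lowest of the other 4, at 7.33. The share of all probe sets parted in this way was not counted. The difference was -0.26 log2 units (SE 0.078, 95% interval -0.44 to -0.086), or 0.835-fold (0.740 to 0.942), with an adjusted p of 0.0209 by limma. It was -0.18 in control arrays alone and -0.34 in PMA arrays alone. The call was lost with number 3 left out of both groups (-0.24, adjusted p = 0.134 by limma), without control 3 (-0.24, adjusted p = 0.0578 by limma), without PMA 1 (-0.18, adjusted p = 0.259) and in control arrays alone (adjusted p = 0.204); over all alternatives the adjusted p ran from 0.00832 to 0.259. With number 3 left out, limma gave every linker gene the same SE of 0.125. That p therefore does not reflect the spread of B4galt7 itself.

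The other 4 genes had higher means in number 1 and did not pass. Xylt2 averaged 7.86 in number 1 and 7.71 ± 0.057 (SD, n = 4) in the others, a difference of 0.15 (SE 0.073, 95% interval -0.015 to 0.31; adjusted p = 0.135 by limma). B3gat3 averaged 8.83 and 8.67 ± 0.087, a difference of 0.16 (SE 0.077, 95% interval -0.015 to 0.33; adjusted p = 0.132 by limma). The gaps between number 1 and the nearest of the other 4 arrays were small. Xylt2 was at 7.762 in PMA 1 and 7.753 in control 2, and B3gat3 at 8.812 in control 1 and 8.777 in PMA 2. The share of all probe sets parted in this way was not counted, so the parting adds nothing to the test. The Xylt2 difference was 0.22 in control arrays alone, 0.072 in PMA arrays alone and 0.054 after quantile normalization of the deposited values. Without PMA 2 the B3gat3 difference was 0.20 and passed (adjusted p = 0.0477 by limma), and after quantile normalization it was -0.016.

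B3galt6 averaged 4.67 and 4.52 ± 0.058, a difference of 0.15 (SE 0.080, 95% interval -0.029 to 0.33; adjusted p = 0.165 by limma). It was 0.28 in PMA arrays alone and 0.021 in control arrays alone. Xylt1 averaged 5.61 and 5.59 ± 0.074, a difference of 0.019 (SE 0.069, 95% interval -0.13 to 0.17; adjusted p = 0.842 by limma), and its sign turned with array median centring and with quantile normalization. The within-array difference of Xylt1 and Xylt2 stood at -0.13 log2 units in number 1 relative to the others, with an exact two-sided permutation p of 0.2 over 15 splits of 2 against 4 arrays, whose smallest possible p is 0.0667. Those splits part arrays of the same number; with the pairs kept whole there are 3 splits, with p = 0.333 by the same exact test, the smallest they allow. It was -0.028 without control 1 and -0.23 without PMA 1. All 5 intervals lay within 0.58 log2 units of 0, as did those of 72.8% of all probe sets.

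**Figure D2:**
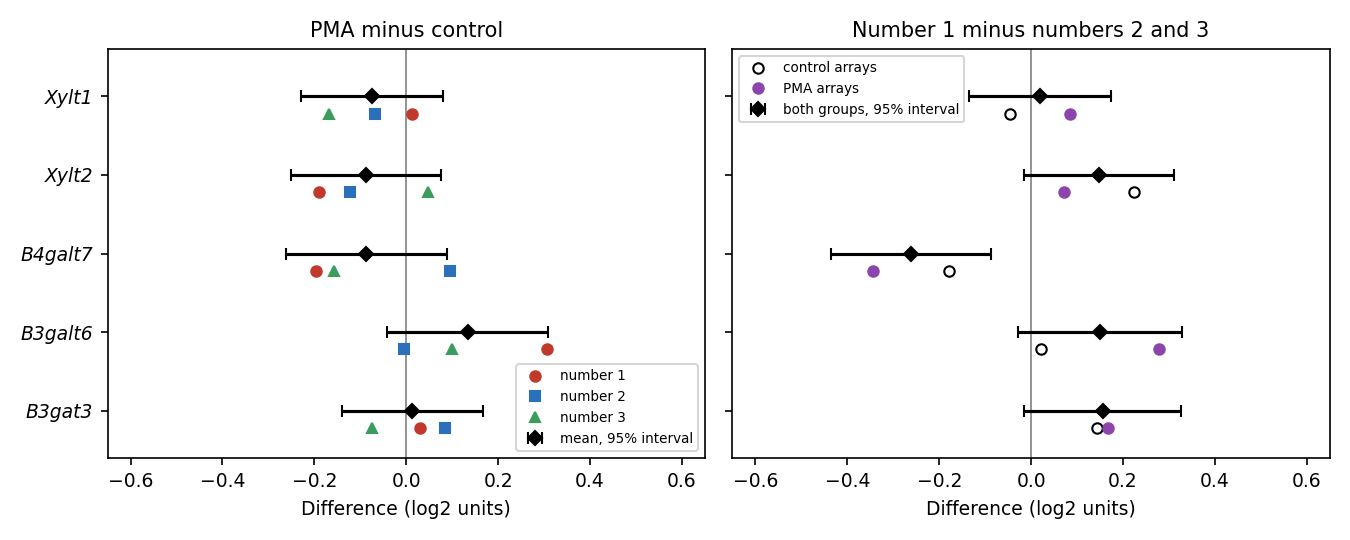
Differences (log2 units, horizontal axis) of the 5 genes: left, PMA minus control with the 3 pairs as coloured symbols; right, number 1 minus numbers 2 and 3, with control and PMA arrays alone as circles. Diamonds and bars give limma's difference and 95% interval; only the interval of B4galt7 on the right leaves out 0.

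Between numbers 2 and 3, which number 1 does not enter, limma called 0 of the 1246 probe sets (61 at an unadjusted p under 0.05), and 0% is the background there. For the linker genes number 2 minus number 3 ran from -0.034 for B4galt7 to 0.13 for B3gat3 (SE 0.083). None of the 5 had an unadjusted p under 0.05 in that comparison.

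Some listed markers of other cell types were called between number 1 and the other arrays, in a fit that called 41.7% of all probe sets. With so few markers measured, their counts are too coarse to set against that share. Of 8 leukocyte markers reported here 4 were measured, and 2 were lower in number 1 by limma, with differences of -2.74 log2 units for the mannose receptor Mrc1 and -3.22 for the chemokine receptor Ccr7. The other 2, Siglech and Selplg, were not called, with differences of -0.030 and -0.090. The summed signal of the 4, which Mrc1 and Ccr7 move, on the log2 scale was 6.98 to 7.25 in number 1 and 9.22 to 9.30 in the other arrays. Of 7 endothelium and fibroblast markers 5 were measured, 3 lower and 1 higher in number 1, with summed signals of 10.16 to 10.35 and 10.03 to 10.58. Cspg4 differed by 2.90, the endothelial adhesion molecule Pecam1 by -1.37 and the adhesion molecule Vcam1 by -1.31. With PMA, the largest differences in the 3 marker lists were 0.38 for Mrc1 (adjusted p = 0.992 by limma, unadjusted p = 0.0114), 0.13 for Vcam1 and -0.042 for Sftpd, and none was called. The 2 lung epithelium markers measured summed to 5.87 to 5.91 in number 1 and 5.61 to 5.79 in the others, and 1 of them, Sftpa1, was higher. Fewer cells of a type and less RNA per cell cannot be told apart in such bulk samples, and the part of these shifts in the B4galt7 difference was not tested.

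Other genes of the pathway were compared between number 1 and the other arrays in the same fit, where 41.7% of all probe sets were called; a list is described by its counts and median, with no test of the list. Of 10 genes listed for linker modification and for the supply or transport of nucleotides and nucleotide sugars, 8 were measured. The list is not limited to the linker's own sugars, so its counts do not measure their supply. Of the 8, 5 were called, 1 higher and 4 lower (median difference -0.31, against 0.079 over all probe sets). With median centring or quantile normalization they were 1 higher and 5 lower. Slc35d1, a transporter that brings UDP-glucuronic acid into the endoplasmic reticulum, averaged 5.95 in number 1 and 7.09 in the others, a difference of -1.14 (SE 0.086). Slc35d2, a nucleotide sugar transporter of the Golgi, differed by -0.87, and Slc35b1, a nucleotide transporter of the endoplasmic reticulum, by -0.65. The 1 gene called higher was Slc35b4, a nucleotide sugar transporter that can carry UDP-xylose, at 0.38 (SE 0.079). Uxs1, which makes the UDP-xylose that xylosyltransferases use, differed by -0.43 (SE 0.070, adjusted p = 0.000498 by limma). Ugdh, which makes UDP-glucuronic acid, the precursor of UDP-xylose, differed by 0.018 (SE 0.084) and was not called. Slc35b4, Uxs1 and Ugdh were singled out after their values were seen. Fam20b and Pxylp1, the kinase and phosphatase of the linker's xylose, had no probe set named here.

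Of 11 genes listed for chain start after the bridge, here called extending enzymes, 10 were measured. The name stands for the list and not for the action of each member. Of the 10, 8 were called, 6 higher and 2 lower in number 1, with a median difference of 0.46 (0.29 with quantile normalization). Ext1, a subunit of the heparan sulfate polymerase, averaged 9.28 in number 1 and 7.28 in the others, a difference of 2.01 (SE 0.066). Its partner Ext2 differed by 0.63 and Extl3, which places the first N-acetylglucosamine of heparan sulfate on the linker, by 0.66. Chsy3, a chondroitin polymerase, averaged 5.29 and 6.81, a difference of -1.53 (SE 0.076), and Csgalnact1, which starts chondroitin on the linker, differed by -0.98. Not all chondroitin genes were lower: Csgalnact2, the other chondroitin starter, differed by 0.59 and Chpf, a chondroitin polymerizing factor, by 0.54. Ext2, Extl3, Csgalnact2 and Chpf were named after their values were seen.

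Genes of the same enzyme families as the linker members were called in 8 of 16 measured, 4 higher and 4 lower, with a median difference of 0.087 that turned to -0.048 with quantile normalization. B4galt5 and B4galt1, relatives of B4galt7 that build glycolipids and N-glycan antennae, differed by 1.38 (SE 0.080) and 1.36 (SE 0.12). B3galt5, a relative of B3galt6 that elongates other glycans, differed by -2.17 (SE 0.077). B3gat2, a relative of B3gat3, differed by 0.099 (SE 0.084) and was not called.

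Of 29 listed core proteins, on which the linker is built, 24 were measured, and 12 were called, 10 higher and 2 lower, with a median difference of 0.15 (0.065 with quantile normalization). Tgfbr3, a TGF-β co-receptor that can carry glycosaminoglycans, and the chondroitin sulfate proteoglycan Cspg4 were higher by 2.98 and 2.90, and aggrecan, Acan, differed by -2.57. With median centring or quantile normalization the core protein counts were 8 higher and 3 lower. The split of calls over all probe sets went from 66.1% higher as deposited to 54.5% higher with quantile normalization, and the extending enzymes again gave 6 higher and 2 lower.

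With PMA, limma called 0 genes of these 4 groups. The unadjusted p was below 0.05 for 1 of the 8 modifier and donor genes, 2 of the 10 extending enzymes, 2 of the 16 family relatives and 2 of the 24 core proteins. Over all 1246 probe sets it was below 0.05 for 42, and 0 were called. The lists were chosen with earlier results of these data known. The largest absolute differences were -0.17 for Slc35b1, 0.21 for Csgalnact1, 0.19 for B3gat2 and 0.23 for Cd44, the hyaluronan receptor, with adjusted p = 0.992 for each by limma.

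**Figure D3:**
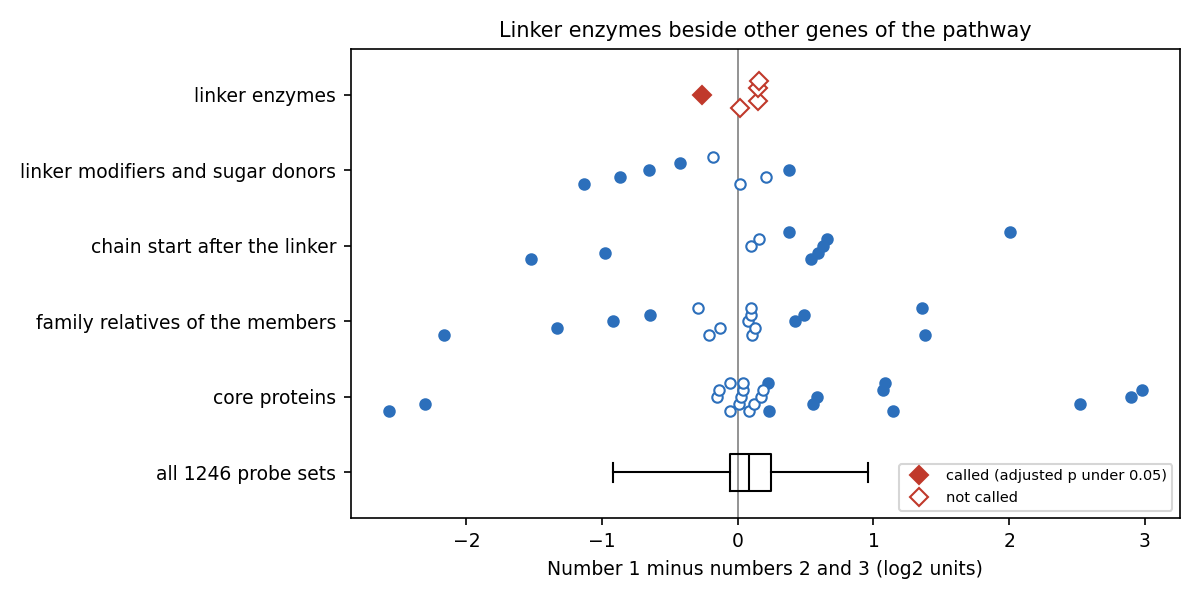
Number 1 minus numbers 2 and 3 (log2 units, horizontal axis) for the 5 linker enzymes and the measured genes of 4 related groups; filled symbols were called by limma at an adjusted p under 0.05. The box of all 1246 probe sets spans the quartiles, with whiskers at the 5th and 95th percentiles; the linker enzymes lie between -0.26 and 0.16, while the extending enzymes reach from -1.53 to 2.01.

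Genes with the most similar profile to each linker gene were found by the root mean square distance over the 6 arrays, each profile taken relative to its own mean, among 908 other named genes. Nearest to B4galt7 were Neu1, the lysosomal sialidase, at 0.037 log2 units, and Tpst1, which sulfates protein tyrosines, at 0.058. Nearest to Xylt2 were Srgn, the core protein serglycin, at 0.023, and Havcr2 at 0.027. Nearest to Xylt1 were Colec12 at 0.028 and Fgfr4 at 0.034. B3galt6 lay closest to Clec14a at 0.024 and Klrg1 at 0.033, and B3gat3 to Il6ra at 0.025 and Clec18a at 0.028. Colec12, Srgn and Clec14a averaged 2.88, 3.61 and 3.93 over the 6 arrays, under every array's lower quartile (4.32 to 4.43). The other neighbours averaged 4.35 (Havcr2) to 9.66 (Tpst1). Signal over background is unknown for the low ones. The neighbours were picked on the same 6 arrays, so their differences between numbers follow from the choice.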

How the data were processed

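The deposited values were used as given. They are deposited log2 values from RMA (per the submitters' processing notes), a method that corrects background, brings arrays to a common distribution and summarises probes. Upper quartiles of the deposited values still differed, at 7.97 and 8.05 in the number 1 arrays and 7.86 to 7.90 in the others. For its version, the array name and any filter, the sources used here give nothing. Per the labels' protocols, biotinylated cRNA was made from 0.5 µg of Trizol-extracted RNA.

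Probe sets were named by matching their RefSeq accession, without version, to the mouse GRCm38.p6 gene table: 963 of 1246 matched, covering 909 genes, and 283 stayed unnamed. The array's build is not named, so gene coordinates are not given. The probe set with the highest mean stood for a gene.

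Fits used limma 3.58.1 in R 4.3.3 (lmFit, eBayes) over all probe sets, with Benjamini-Hochberg adjustment and a threshold of 0.05; SE is the moderated standard error. PMA was fitted with the replicate number as a block, and number 1 against numbers 2 and 3 with PMA as a term. Same-numbered arrays, paired by the titles, had deviations from their group means that correlated across probe sets at 0.956, 0.815 and 0.912, over the set 0.1. With number 1 set aside, the differences of numbers 2 and 3 correlated at 0.0412 between the groups, so the pairing rests mainly on number 1. The procedure was also run on simulated data with independent noise in each array, and that run is not used here as support for any result. Members, lists and the comparison of number 1 with numbers 2 and 3 were chosen with earlier results of these data known. Named are all 5 members, the 2 genes nearest each in profile, and in each list the 3 called genes of largest absolute number 1 difference and the gene of largest absolute PMA difference. Alternatives changed scaling, filter, eBayes settings, block and arrays included. One marker gene is not reported here.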

Additional observations from a re-analysis of the deposited data

How the results depend on the processing

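No alternative called a linker gene with PMA, among them the fit with no replicate block (0 of 5, and 0 probe sets). Over all probe sets the PMA count ran from 0 to 3 when 1 array was left out. In the blocked fit, leaving out either array of a number gave the same PMA difference. For PMA, leaving out 1 array therefore amounts to leaving out its pair. The only PMA difference that turned was that of B3gat3, which ran from -0.023 to 0.057 with 1 array left out; over the same settings B3galt6 ran from 0.047 to 0.20, B4galt7 from -0.18 to -0.032, Xylt2 from -0.16 to -0.037 and Xylt1 from -0.12 to -0.028. Between number 1 and the others, 1 linker gene was called in the main analysis, 0 in control arrays only, 0 with number 3 left out of both groups (chosen after seeing the data; B4galt7 at -0.24, adjusted p = 0.134 by limma), and 0 to 2 with 1 array left out; each of these uses fewer arrays. With number 3 left out, every linker gene had the same SE of 0.125. The Xylt1 difference turned to -0.020 with array median centring, -0.036 with quantile normalization and -0.046 in control arrays only, and ran from -0.046 to 0.085 with 1 array left out. The B3gat3 difference was -0.016 with quantile normalization; the cause was not tested. The within-array difference of Xylt1 and Xylt2 ran from -0.23 to -0.028 with 1 array left out. B4galt7 kept its call in 12 of 16 alternatives, with differences from -0.34 to -0.18. Both its number 1 arrays lay below all the others, so leaving out arrays could not turn its sign. Changes of filter, eBayes settings or PMA term left the difference itself as it was. Only the changes of scaling could have turned it, and they gave -0.30 with array median centring and -0.27 with quantile normalization. The filter on low values left out Xylt1 and B3galt6. Signal over background is unknown for all 5 genes.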
